A study of Mus musculus with 2 samples.

Results

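The interleukins, the TNF superfamily and their receptors were followed in PDGFRa-positive stromal cells of mouse inguinal white adipose tissue. Members were the rows of the deposited gene table whose symbol begins with Il, Tnfsf or Tnfrsf and a digit, together with Tnf, Lta, Ltb, Ltbr, Lif, Lifr, Osm, Osmr, Csf1, Csf2, Csf3 and Tslp. They numbered 109 of 23647 genes. The cells came from 2 pools of mice, labelled male and aged 3 weeks, that had all received doxycycline on postnatal day 1. One pool was of Sox9 PreASKO mice and the other of Sox9 floxed mice, with 3 mice to a pool per the series design text. PreASKO names the Sox9 knockout, and the promoter that drives the deletion is not given in the labels. Collagenase-digested tissue yielded the stromal vascular fraction, meaning the cells other than adipocytes, which was stained for PDGFRa. Then polyadenylated RNA was sequenced as 1 library per genotype.

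Interleukins and the ligands of the TNF superfamily are short-range messengers between immune and stromal cells. IL-1 and TNF family receptors signal mainly through NF-kappaB, whereas receptors built on the gp130 or the common gamma chain signal through Janus kinases and STAT proteins. Many receptors work as pairs of a ligand-specific chain and a shared chain, and decoy receptors and binding proteins take up ligand without signalling. Adipose stromal cells are a known source of IL-6, IL-33, CSF1 and LIF, and TNF, IL-1 and IL-6 family cytokines are known to restrain adipocyte differentiation.

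The PreASKO library held 37597048 counts and the floxed library 61761645. Levels are CPM (library-scaled counts), for which raw and repeat-distributed counts were added. Ratios are PreASKO over floxed, given as a ratio of CPM with an exact 95% interval that covers counting error only, or as a difference of log2(CPM + 1), called the log2 ratio, which understates differences of low genes. As each genotype had 1 library, differences have no replicate check and could not be tested. The targeted gene Sox9 stood at 17.0 CPM in PreASKO and 28.6 CPM in floxed, and Pdgfra, the gene of the sorting marker, at 603 and 716 CPM. The library labelled PreASKO is labelled male, yet Xist, an RNA that coats the inactive X chromosome in females, stood at 745 CPM in it and at 3.24 CPM in floxed, while 4 Y-linked genes were present in both. Of these, Ddx3y stood at 39.5 CPM in PreASKO and 40.6 CPM in floxed, and Kdm5d (10.9 and 20.2 CPM), Eif2s3y (10.98 and 17.6 CPM) and Uty (9.12 and 12.5 CPM) were lower in PreASKO. Of 16 listed macrophage markers, 15 had a row and all 15 were higher in PreASKO. None of them was at 0 in either library, their summed level was 3038 CPM in PreASKO and 1618 CPM in floxed, and their median log2 ratio was 0.86. The 11 endothelial markers summed to 501 and 482 CPM, with a median of 0.66 and 9 of 11 higher. Among fibroblast and adipose precursor markers with a row, 4 of 8 were higher, with a median of -0.02 that turned to 0.01 under DESeq2 or TMM scaling. In bulk RNA, fewer cells of a type and less RNA per cell cannot be told apart.

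Of the 109 members, 69 had a mean of at least 1 CPM over both libraries and are called measured below. The other 40 were at trace levels. Measured members leaned upward in PreASKO. In all, 45 were higher and 24 lower, with a median log2 ratio of 0.14, against a median of -0.04 for all 13684 measured genes, of which 45.5% were higher and 54.5% lower. By the log2 ratio, at least 1.5-fold higher were 16 members (23.2%), where 7.89% of all measured genes were. At least 1.5-fold lower by it were only Lif and Tnfrsf14 (2.9%), where 8.18% of all genes were. The counts here use the log2 ratio and leave out some genes that pass a limit by the ratio of CPM alone. Examples are Il2ra (0.533) and Tnfrsf18 (0.589) for 1.5-fold lower, Il12rb2 (1.79) for 1.5-fold higher and Il1b (2.10) for 2-fold higher. At least 2-fold higher, the size named in the series design text, were 3 members, Tnfsf9, Il2rg and Il27ra (4.35%), against 2.11% of all measured genes. This count was 7 with a pseudocount of 0.1 CPM, where 3.76% of all genes passed, and 1 with 5 CPM, where 0.424% did, and without the 14 measured members that share reads by overlap or copy it was 1, Il27ra. No measured member was at least 2-fold lower, where 1.52% of all genes were. Just outside the 2-fold limit lay Il15ra at 0.89 above, and Tnfrsf14 at -0.81 below.

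**Figure D1:**
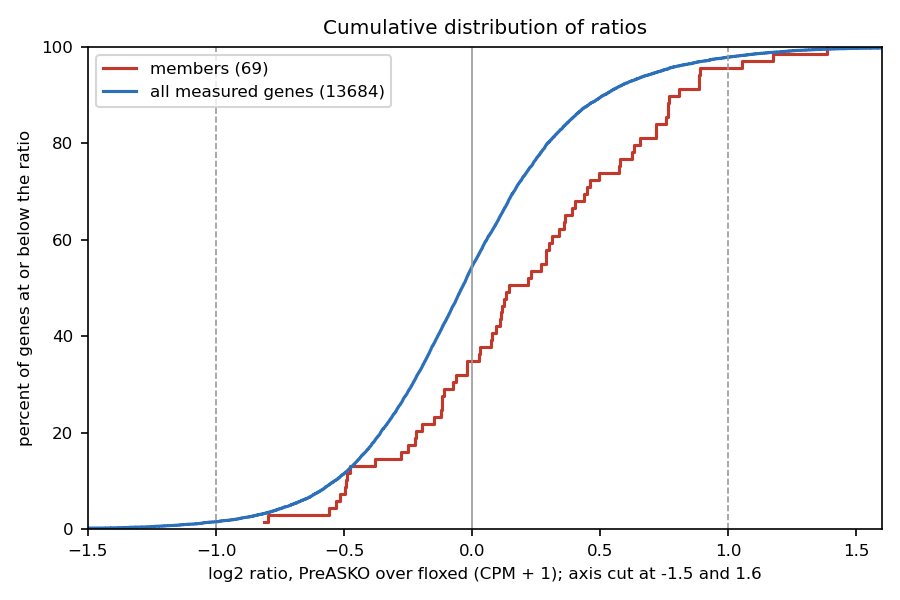
Percent of genes (y axis) at or below each log2 ratio of PreASKO over floxed (x axis) for the 69 measured members (red) and all 13684 measured genes (blue), with dashed lines at 2-fold. The red curve lies to the right of the blue one over most of the range, with medians of 0.14 and -0.04.

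The promoters of some members that the results turn on are shown here, as the 250 bases before the RefSeq start on GRCm38.p6, the assembly on which mm10 is based. Il2rg is shown as a gene past 2-fold, Il6, Csf1 and Tnf as ligands that were higher in PreASKO, and Lif as the measured ligand that was furthest below. Capitals mark matches to the NF-kappaB consensus and the C/EBP consensus, or to TATAAA, searched on both strands. The NF-kappaB consensus reads GGG, a purine, any base, A or T, a pair of pyrimidines and CC, and the C/EBP consensus reads TT, a purine, a pyrimidine, G, a pyrimidine, AA and a pyrimidine. Each sequence runs 5′ to 3′ on the strand of its gene.
Il2rg, minus strand, chrX:101268256-101268505: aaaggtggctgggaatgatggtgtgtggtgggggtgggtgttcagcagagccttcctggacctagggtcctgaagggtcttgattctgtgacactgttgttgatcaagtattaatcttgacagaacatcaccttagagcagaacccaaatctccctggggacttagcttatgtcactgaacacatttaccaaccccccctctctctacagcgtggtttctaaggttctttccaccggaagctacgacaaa
Il6, plus strand, chr5:30012864-30013113: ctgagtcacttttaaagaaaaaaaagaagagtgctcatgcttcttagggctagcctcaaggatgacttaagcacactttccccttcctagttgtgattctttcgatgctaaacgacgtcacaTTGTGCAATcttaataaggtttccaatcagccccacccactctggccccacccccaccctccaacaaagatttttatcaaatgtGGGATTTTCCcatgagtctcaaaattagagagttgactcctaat
Csf1, minus strand, chr3:107760470-107760719: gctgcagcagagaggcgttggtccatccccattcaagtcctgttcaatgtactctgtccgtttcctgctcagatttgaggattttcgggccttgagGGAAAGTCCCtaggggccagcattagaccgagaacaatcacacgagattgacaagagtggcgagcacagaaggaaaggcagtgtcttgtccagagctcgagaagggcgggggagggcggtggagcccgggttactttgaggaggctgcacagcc
Tnf, minus strand, chr17:35202008-35202257: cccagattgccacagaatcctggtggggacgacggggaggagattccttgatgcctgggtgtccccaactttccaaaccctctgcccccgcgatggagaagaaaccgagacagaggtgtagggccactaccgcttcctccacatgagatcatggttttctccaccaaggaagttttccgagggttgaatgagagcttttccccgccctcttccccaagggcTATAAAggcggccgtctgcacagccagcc
Lif, plus strand, chr11:4257318-4257567: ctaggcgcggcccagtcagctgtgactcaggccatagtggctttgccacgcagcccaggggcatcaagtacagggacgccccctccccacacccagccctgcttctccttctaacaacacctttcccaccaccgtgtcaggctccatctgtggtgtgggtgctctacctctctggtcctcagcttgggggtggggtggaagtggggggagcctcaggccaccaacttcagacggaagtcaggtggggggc

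In the Il6 promoter the C/EBP match spans 128 to 120 bases before the start and the NF-kappaB match 44 to 35 bases before it. The Csf1 promoter holds its NF-kappaB match on the opposite strand, 154 to 145 bases before the start, and the Tnf promoter holds TATAAA 29 to 24 bases before the start. Promoters in the RefSeq table, as windows of 300 bases that reach 50 bases past the start, matched 85 members with 104 sequences. The NF-kappaB consensus was found in 11 of these 104 (10.6%) and in 4.51% of 32851 windows of all genes. TATAAA was found in 16 of 104 (15.4%) and in 13.6% of all windows, and the C/EBP consensus in 1 of 104, that of Il6, and in 1.54% of all windows. Of the 51 measured members with a window, 7 held the NF-kappaB consensus, and their log2 ratios ran from -0.51 for Il2ra to 0.72 for Il6. Of 13 such members that were at least 1.5-fold higher, 1 held it, again Il6. A match is a string of letters in a window and says nothing of binding.

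The measured ligands of the TNF superfamily, 6 of 14, were higher in PreASKO. Each of these 6 lay above 0, with a median log2 ratio of 0.49, and their group's summed level, trace members included, was 244 CPM in PreASKO and 159 CPM in floxed. The ligands at trace levels mostly went the other way. Tnfsf14 (9 counts in PreASKO and 78 in floxed), Tnfsf11 (0 and 20), Ltb (0 and 15), Tnfsf4, Tnfsf18, Tnfsf15 and Tnfsf8 were lower in PreASKO by CPM. Only Lta (2 and 0 counts) was higher. The lean thus holds for the measured ligands alone. Tnfsf9 (Entrez ID 21950; chromosome 17, 57105287 to 57107758, plus strand) had the highest log2 ratio of the measured members, 1.39. It encodes 4-1BB ligand, which antigen-presenting cells use to costimulate T cells, and it stood at 57.2 CPM in PreASKO (2151 counts) and 21.3 CPM in floxed (1314 counts), a ratio of 2.69 (2.51 to 2.88). Its receptor gene Tnfrsf9 had 0 counts in PreASKO and 15 in floxed. A noncoding gene on the other strand overlaps 14.9% of the exon length of Tnfsf9, and use of strand is not given in the sources used here.

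Tnf, the founding ligand of the family and an inducer of NF-kappaB, stood at 27.6 CPM in PreASKO and 15.9 CPM in floxed, a ratio of 1.73 (1.59 to 1.89). Tnfsf12 encodes TWEAK, a ligand made by many tissues, and stood at 143 CPM in PreASKO and 108 CPM in floxed, a ratio of 1.32 (1.28 to 1.37). The B cell survival ligands followed, with Tnfsf13 (APRIL) at 8.38 and 5.30 CPM and Tnfsf13b (BAFF) at 5.19 and 4.65 CPM in PreASKO and floxed. Tnfsf10, the death ligand TRAIL, stood at 2.31 CPM in PreASKO and 1.59 CPM in floxed. A read-through gene covers 48.3% of the exons of Tnfsf12 and 60.0% of those of Tnfsf13, so reads of this pair could not be assigned with certainty, and their antisense neighbour Tnfsf13os stood at 1.17 and 1.04 CPM. Macrophages also make Tnf, Tnfsf9, Tnfsf12 and Tnfsf13b, and their 15 markers had a median log2 ratio of 0.86. The part of macrophage RNA in these ratios was not tested.

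Receptors of the TNF superfamily did not lean either way. Of 16 measured receptors, 8 were higher and 8 lower, with a median log2 ratio of 0.01 and summed levels of 408 CPM in PreASKO and 418 CPM in floxed. The receptors for TNF itself differed in direction. Tnfrsf1a, the broadly expressed death-domain receptor, stood at 123 CPM in PreASKO and 137 CPM in floxed, a ratio of 0.900 (0.868 to 0.933). Tnfrsf1b, which is enriched on immune and endothelial cells, stood at 55.4 CPM in PreASKO and 40.4 CPM in floxed, a ratio of 1.37 (1.29 to 1.46). Per kilobase of exon, Tnfrsf1a exceeded Tnfrsf1b 3.28-fold in PreASKO and 5.0-fold in floxed.

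Tnfrsf14 had the lowest log2 ratio of the measured members, -0.81. It encodes HVEM, a receptor for LIGHT and other ligands, and stood at 8.94 CPM in PreASKO (336 counts) and 16.5 CPM in floxed (1017 counts), a ratio of 0.543 (0.478 to 0.615). LIGHT itself, encoded by Tnfsf14, was at trace levels, with 9 counts in PreASKO and 78 in floxed, a ratio of 0.190 (0.0836 to 0.379). The lymphotoxin beta receptor gene Ltbr, whose product LIGHT also binds, stood at 56.4 CPM in PreASKO and 59.5 CPM in floxed.

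Tnfrsf12a, which encodes the TWEAK receptor Fn14, stood at 30.5 CPM in PreASKO and 43.3 CPM in floxed, a ratio of 0.703 (0.655 to 0.754). Ligand and receptor of this pair thus differed in opposite directions, and per kilobase Tnfsf12 exceeded Tnfrsf12a 5.99-fold in PreASKO and 3.18-fold in floxed. In the RANK system, which controls osteoclasts, the receptor gene Tnfrsf11a stood at 5.98 CPM in PreASKO and 4.63 CPM in floxed, the decoy gene Tnfrsf11b (osteoprotegerin) at 7.66 and 9.49 CPM, and the ligand gene Tnfsf11 had 0 counts in PreASKO and 20 in floxed. Against a floor of 3 counts in the PreASKO library, Tnfsf11 was at least 4.06-fold lower there, while the exact interval, which also counts the error of the floxed library, allows a ratio of up to 0.333.

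The death receptor gene Tnfrsf10b stood at 8.99 CPM in PreASKO and 6.38 CPM in floxed, and Tnfrsf21 (DR6) at 32.5 and 30.8 CPM. Tnfrsf23 (46.9 and 40.2 CPM), Tnfrsf22 (15.3 and 15.6 CPM) and Tnfrsf26 (3.56 and 3.63 CPM) are tandem copies on chromosome 7, and reads may be shared among them. Tnfrsf25 (DR3) stood at 2.85 CPM in PreASKO and 1.26 CPM in floxed, and Tnfrsf18 (GITR), an activation receptor of T cells, at 1.76 and 2.98 CPM. An antisense gene overlaps 27.2% of the exons of Tnfrsf18. The B cell receptors for BAFF and APRIL, Tnfrsf13b at 4.47 and 4.05 CPM and Tnfrsf13c at 1.41 and 1.36 CPM, were close in PreASKO and floxed.

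**Figure D2:**
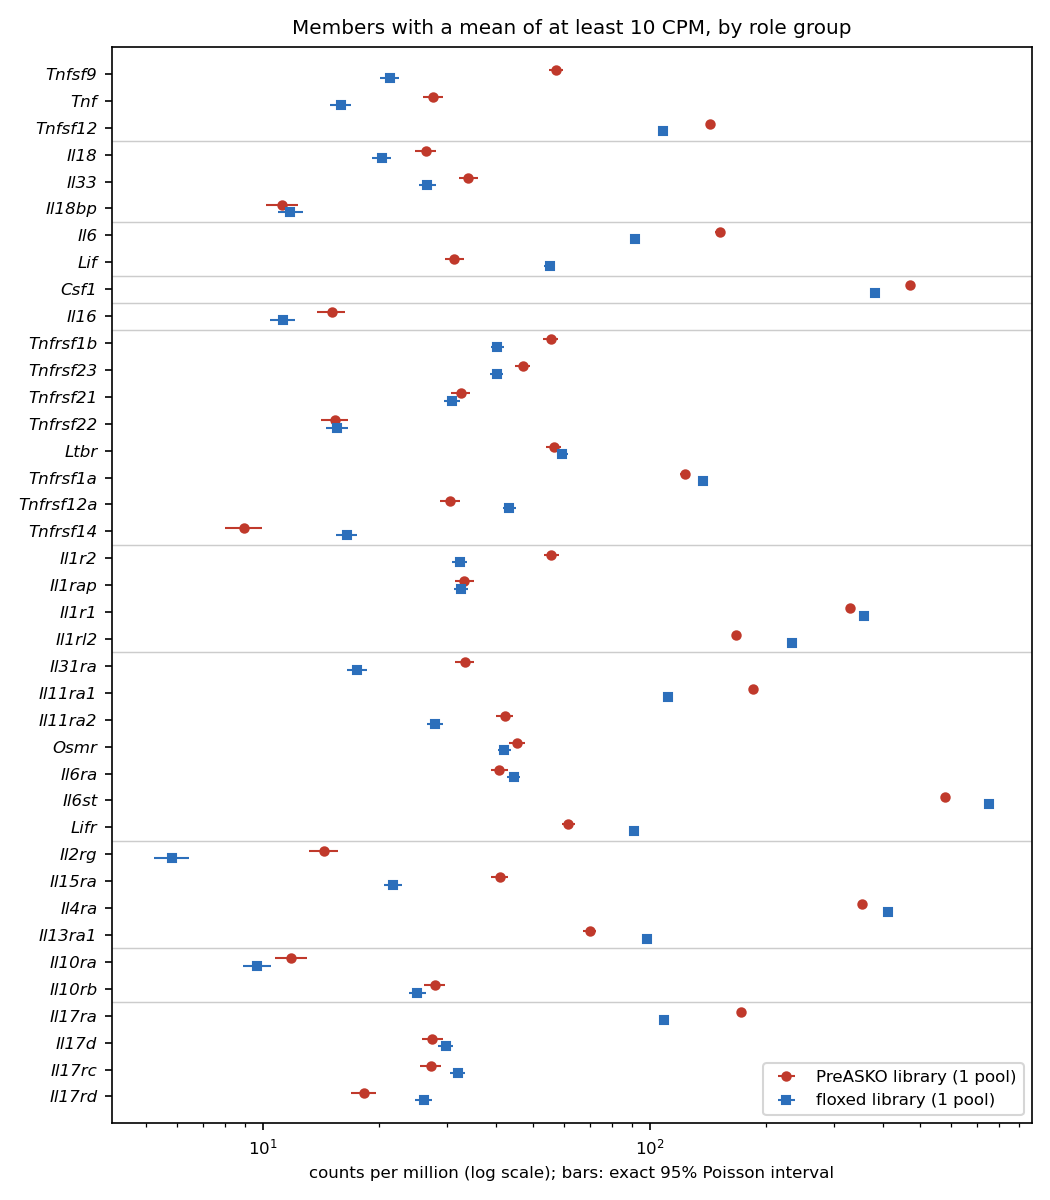
Level in CPM on a log axis for the 39 members with a mean of at least 10 CPM, with PreASKO as red circles, floxed as blue squares and bars for the exact 95% Poisson interval. Grey lines part the role groups. Tnfsf9 and Il2rg show the widest gaps in favour of PreASKO, and Tnfrsf14 and Lif the widest in favour of floxed.

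Among the IL-1 family ligands, Il33, Il18 and Il1b were higher in PreASKO. Il33, the alarmin of stromal and endothelial cells that sustains type 2 immune cells in fat, stood at 34.0 CPM in PreASKO and 26.6 CPM in floxed, a ratio of 1.28 (1.19 to 1.37). Il18, a cytokine that inflammasomes activate, stood at 26.3 CPM in PreASKO and 20.3 CPM in floxed, a ratio of 1.30 (1.19 to 1.41). Il1b, made chiefly by myeloid cells, was far lower in level, at 4.55 CPM in PreASKO (171 counts) and 2.17 CPM in floxed (134 counts), a ratio of 2.10 (1.66 to 2.65). Il1rn, the IL-1 receptor antagonist, stood at 1.41 and 1.23 CPM, and Il18bp, which neutralizes IL-18, at 11.2 and 11.8 CPM in PreASKO and floxed. The group median of its 5 measured genes was 0.34.

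Most receptors of the IL-1 family lie side by side on chromosome 1, between 40084692 (the start of Il1r2) and 40551707 (the end of Il18rap), and they did not share a direction. Il1r2, a decoy that binds IL-1 without signalling, stood at 55.7 CPM in PreASKO and 32.3 CPM in floxed, a ratio of 1.72 (1.62 to 1.83). Next to it, the signalling receptor gene Il1r1 stood at 329 CPM in PreASKO and 357 CPM in floxed, a ratio of 0.922 (0.902 to 0.943). Per kilobase, the signalling receptor exceeded the decoy 1.77-fold in PreASKO and 3.32-fold in floxed.

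Il1rl2, the receptor gene for IL-36, lies beside Il1r1 and stood at 167 CPM in PreASKO and 233 CPM in floxed, a ratio of 0.718 (0.697 to 0.739). The following pair was higher in PreASKO. Il1rl1, which encodes the IL-33 receptor ST2, stood at 10.2 CPM in PreASKO and 5.08 CPM in floxed, a ratio of 2.01 (1.73 to 2.35), and the IL-18 receptor gene Il18r1 at 9.60 CPM in PreASKO against 5.85 CPM in floxed, a ratio of 1.64 (1.42 to 1.91). Hence for IL-33 and for IL-18 both the ligand and its own receptor chain were higher in PreASKO. The coreceptor gene Il1rap, on chromosome 16 and needed by IL-1, IL-33 and IL-36, stood at 33.2 CPM in PreASKO and 32.5 CPM in floxed, and Il18rap, the accessory chain for IL-18, had 3 and 6 counts.

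Ligands of the gp130 receptors divided. Il6, which many stromal cells release under stress, stood at 151 CPM in PreASKO (5694 counts) and 91.8 CPM in floxed (5670 counts), a ratio of 1.65 (1.59 to 1.71). Lif, which acts through gp130 and the LIF receptor, stood at 31.3 CPM in PreASKO (1175 counts) and 55.1 CPM in floxed (3404 counts), a ratio of 0.567 (0.530 to 0.606). Osm, encoding oncostatin M and lying next to Lif on chromosome 11, stood at 4.97 CPM in PreASKO and 4.48 CPM in floxed, so these neighbours differed in ratio. Il11 was at trace levels, with 17 and 29 counts.

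Receptors of this family also differed in direction. The shared chain gp130, encoded by Il6st and the member with the most counts, stood at 578 CPM in PreASKO and 751 CPM in floxed, a ratio of 0.769 (0.757 to 0.782). Lifr, the partner chain for LIF, stood at 61.6 CPM in PreASKO and 91.2 CPM in floxed, a ratio of 0.676 (0.644 to 0.709). All 3 genes of LIF reception, Lif, Lifr and Il6st, were thus lower in PreASKO. Il6ra, which binds IL-6, barely differed at 40.9 and 44.4 CPM, as did Osmr at 45.5 CPM in PreASKO and 42.1 CPM in floxed.

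Il11ra1, the receptor gene for IL-11, stood at 184 CPM in PreASKO and 112 CPM in floxed, a ratio of 1.65 (1.596 to 1.71), and its near-identical copy Il11ra2 at 42.2 and 27.9 CPM. Reads may be divided between these copies, although both were higher. Il31ra lies beside Il6st on chromosome 13 and pairs with Osmr as the receptor for IL-31, a cytokine of itch. It stood at 33.2 CPM in PreASKO and 17.5 CPM in floxed, a ratio of 1.90 (1.75 to 2.06).

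Il27ra (Entrez ID 50931; chromosome 8), the specific chain of the IL-27 receptor, was the third gene past 2-fold, at 4.47 CPM in PreASKO (168 counts) and 1.64 CPM in floxed (101 counts). Its ratio was 2.73 (2.12 to 3.53) and its log2 ratio 1.05. The raw count held most of its counts, 166 in PreASKO and 72 in floxed, and alone gave a log2 ratio of 1.59. With the repeat-distributed count alone, only 2 counts in PreASKO and 29 in floxed, its log2 ratio turned to -0.58. With a pseudocount of 5 CPM it was 0.51, so the 2-fold call depends on these choices. Per kilobase, Il6st exceeded Il6ra 11.0-fold in PreASKO and 13.2-fold in floxed, and Il11ra1 1.26-fold in PreASKO and 2.71-fold in floxed. The lengths join all annotated exons of a gene, which gives 4471 bases for Il11ra1 but 1299 for its copy Il11ra2. The comparison with Il11ra1 therefore depends on the annotation.

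Measured chains of the common gamma and type 2 receptors ranged widely, from Il2rg with a log2 ratio of 1.18 to Il2ra with -0.51. Il2rg (Entrez ID 16186; chromosome X) encodes the gamma chain shared by the receptors for IL-2, IL-4, IL-7, IL-9, IL-15 and IL-21, and is a gene of blood cells. It stood at 14.4 CPM in PreASKO (541 counts) and 5.81 CPM in floxed (359 counts), a ratio of 2.48 (2.16 to 2.84). With a pseudocount of 5 CPM its log2 ratio was 0.84, under the 2-fold limit. A read-through gene covers 30.5% of its exons. Il2rg is X-linked and the PreASKO library carried Xist. The 444 measured X-linked genes had a median log2 ratio of -0.03, and a part of sex in the Il2rg ratio was not tested. The macrophage markers had a median of 0.86, and their part in the Il2rg ratio was not tested either.

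Il15ra, which binds IL-15 and presents it to neighbouring cells, stood at 41.0 CPM in PreASKO and 21.7 CPM in floxed, a ratio of 1.89 (1.76 to 2.04). Its ligand gene Il15 stood at 6.17 CPM in PreASKO and 4.87 CPM in floxed. The neighbouring Il2ra, the alpha chain for IL-2, went the other way at 0.958 CPM in PreASKO and 1.797 CPM in floxed, a ratio of 0.533 (0.355 to 0.782). Il21r, a lymphocyte receptor gene, stood at 2.07 CPM in PreASKO and 0.810 CPM in floxed, and Il3ra, a chain for IL-3, at 5.03 and 3.38 CPM.

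The receptors for IL-4 and IL-13 were abundant and lower in PreASKO. Il4ra, the chain common to both cytokines, stood at 354 CPM in PreASKO and 413 CPM in floxed, a ratio of 0.858 (0.840 to 0.876). Il13ra1, the partner chain on non-blood cells, stood at 69.9 CPM in PreASKO and 98.5 CPM in floxed, a ratio of 0.710 (0.678 to 0.744). Per kilobase, Il4ra exceeded Il13ra1 3.13-fold in PreASKO and 2.59-fold in floxed, and exceeded Il2rg 9.79-fold in PreASKO and 28.3-fold in floxed. Of the 2 chains that pair with Il4ra, the 1 typical of blood cells was therefore higher and the other lower in PreASKO. The ligand Il4 had 36 and 25 counts and Il5 had 1 and 4, and Tslp, an epithelial and stromal cytokine that drives type 2 immunity, stood at 2.02 CPM in PreASKO and 1.47 CPM in floxed. Il7, a lymphocyte growth factor made by stroma, stood at 1.06 CPM in PreASKO and 1.46 CPM in floxed.

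**Figure D3:**
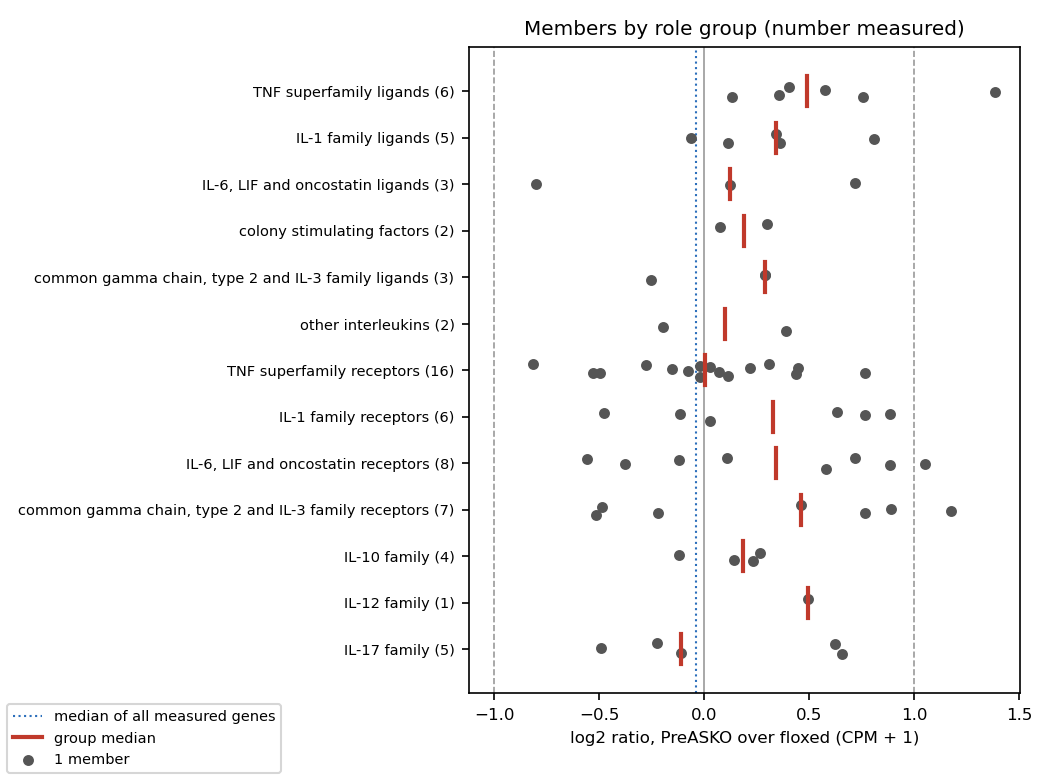
Log2 ratio of PreASKO over floxed for each measured member (grey points) by role group, with the number measured in brackets, group medians in red and the median of all measured genes as a dotted blue line. All 6 measured TNF superfamily ligands lie above 0 around a median of 0.49, whereas the 16 measured TNF superfamily receptors spread around 0.01. Ligands and receptors at trace levels are not shown. Points are spread vertically only to separate them.

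In the IL-17 family the common receptor and its partners differed in direction. Il17ra, the chain that all IL-17 receptors share, stood at 172 CPM in PreASKO and 109 CPM in floxed, a ratio of 1.58 (1.53 to 1.64). Il17rc, which completes the receptor for IL-17A and IL-17F, stood at 27.2 CPM in PreASKO and 31.9 CPM in floxed, a ratio of 0.851 (0.788 to 0.918). Il17rd, known as Sef and also an inhibitor of fibroblast growth factor signalling, stood at 18.2 CPM in PreASKO and 26.1 CPM in floxed, a ratio of 0.700 (0.640 to 0.766). Per kilobase, Il17ra exceeded Il17rc 1.96-fold in PreASKO and 1.05-fold in floxed. The receptor gene for IL-25, Il17rb, stood at 1.52 CPM in PreASKO and 0.631 CPM in floxed, and Il17d, the ligand of the family that was measured, at 27.4 and 29.7 CPM.

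The 4 measured genes of the IL-10 family lay within 1.5-fold. Il10, an anti-inflammatory cytokine, stood at 3.54 CPM in PreASKO and 2.87 CPM in floxed, Il10ra at 11.8 and 9.67 CPM and Il10rb at 27.8 and 25.1 CPM, with Il20rb at 9.07 and 9.96 CPM. Of the IL-12 family only Il12rb2 was measured, at 1.94 CPM in PreASKO and 1.08 CPM in floxed, and 40.0% of its exon length overlaps the gene Serbp1 on the other strand. Il16, a chemoattractant of lymphocytes, stood at 15.1 CPM in PreASKO and 11.3 CPM in floxed.

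Csf1, the growth factor on which tissue macrophages depend, was among the members with the highest levels and was higher in PreASKO, at 471 CPM (17701 counts) against 382 CPM in floxed (23620 counts), a ratio of 1.23 (1.21 to 1.25). Il34, the other ligand of the same receptor, stood at 3.94 CPM in PreASKO and 4.65 CPM in floxed. That receptor, encoded by Csf1r and itself a macrophage marker, stood at 307 CPM in PreASKO and 150 CPM in floxed, a ratio of 2.04 (1.99 to 2.10). Csf3, the granulocyte factor, stood at 4.02 CPM in PreASKO and 3.76 CPM in floxed, and Csf2 was at trace levels, with 21 counts in PreASKO and 6 in floxed.

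Per kilobase of exon, Tnfsf12 and Csf1 held the 2 highest levels among measured members in both libraries, with Tnfsf12 at 94.5 CPM per kilobase in PreASKO and 71.3 in floxed, and Csf1 at 89.2 and 72.4. Il6 ranked 3 in PreASKO and 7 in floxed, and Tnfsf9 ranked 8 in PreASKO and 17 in floxed. The abundant receptors Il4ra, Il6st, Il1r1 and Tnfrsf1a took ranks 4 to 7 in PreASKO and 3 to 6 in floxed. In sum the members took 0.381% of counts in PreASKO and 0.375% in floxed, and the 10 with the most counts held 70.2% and 72.0% of that. In these libraries 17 measured ligands and binding proteins in the groups named for ligands had a median log2 ratio of 0.34 with 14 higher. The 37 measured receptors in the groups named for receptors had a median of 0.07 with 21 higher. Both sets leave out members at trace levels. Of the trace ligands in these groups, Il11, Il27, Il5, Il21 and the TNF superfamily ligands other than Lta were lower in PreASKO. Il2, Il4 and Lta were higher. The ligand lean therefore depends on the minimum level. Of all measured genes 45.5% were higher, with a median of -0.04. The IL-10, IL-12 and IL-17 families, colony stimulating factors, other interleukins and Tnfsf13os were in neither set.

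The 40 members at trace levels were given by counts, since their ratios rest on few reads. In PreASKO, 11 of the 109 members had 0 counts where floxed had some, and 6 had 0 in floxed where PreASKO had some. Of all 23647 genes, 20784 had a count in PreASKO and 21976 in floxed, the deeper library. Il7r, the receptor of IL-7 on lymphoid cells, had 2 counts in PreASKO and 53 in floxed, a ratio of 0.0620 (0.00732 to 0.235). The T cell receptor subunit genes gave no common direction beside it, with Cd3e at 1 count in PreASKO and 91 in floxed and Cd3g at 39 and 2. Against the floor of 3 counts per library, Il12a (0 and 19 counts) was at least 3.86-fold lower in PreASKO, Ltb and Tnfrsf9 (0 and 15 counts each) at least 3.04-fold lower, and Tnfrsf19 (14 and 0 counts) at least 7.67-fold higher. The exact intervals are wider and allow ratios of up to 0.352 for Il12a and 0.458 for Ltb and Tnfrsf9, and down to 5.45 for Tnfrsf19. Il22ra2, a soluble decoy for IL-22, had 24 counts in PreASKO and 2 in floxed, a ratio of 19.7 (4.89 to 172). The lymphocyte receptor genes Tnfrsf4 (45 and 34 counts), Tnfrsf17 (36 and 25 counts) and Il2rb (47 and 41 counts) had means below 1 CPM over both libraries. Il13ra2, a decoy for IL-13, had 13 counts in PreASKO and 27 in floxed, and Tnfsf18 had 9 and 22. Il27, Tnfsf4, Il21, Il17f, Tnfrsf8, Il9r and Il23r had 0 counts in PreASKO and 1 to 9 in floxed. Il2, Il19, Lta, Il12rb1 and Il1rapl2 had 1 to 5 counts in PreASKO and 0 in floxed. The remaining 10 members, namely Il17re, Il1rapl1, Il12b, Il23a, Il22ra1, Il5ra, Il20ra, Il17c, Tnfsf8 and Tnfsf15, had 1 to 11 counts in each library.

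How far the deposited columns carry a ratio differed between members. Of 30 measured members with at least 20 counts in both the raw and the repeat-distributed column of both libraries, 10 had ratios of opposite sign in the columns (33.3%), against 37.0% of 5516 such genes in all. Tnfsf9 was higher by either column, with log2 ratios of 1.62 from raw and 1.25 from repeat-distributed counts, as was Il2rg at 1.09 and 1.18. Il6 (0.80 and 0.41), Il17ra (0.65 and 0.70), Il18r1 (0.64 and 0.65), Lifr (-0.87 and -0.24), Il6st (-0.49 and -0.40) and Il13ra1 (-0.73 and -0.28) also kept their direction.

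Other members turned with the column. By the raw count alone Il4ra had a log2 ratio of 0.46 and by the repeat-distributed count -0.32, and Ltbr had 0.20 and -0.43. Il1rap had 0.23 from raw and -1.01 from repeat-distributed counts, Il17d 0.10 and -0.41, and Il18bp 0.20 and -0.15. The TNF receptors Tnfrsf1b (0.41 and -0.01), Tnfrsf10b (0.69 and -0.31), Tnfrsf21 (0.26 and -0.09), Tnfrsf22 (-0.84 and 0.33) and Tnfrsf11a (-0.19 and 1.18) made up the rest. The direction given above for these 10 genes therefore depends on adding the columns. For Tnfrsf14, Il15ra, Il16, Il33, Osm, Osmr, Tnfrsf23 and Tslp the raw count alone turned the sign too, but it held under 8% of their counts in either library, as for Tnfrsf14 with a raw share of 0.298% in PreASKO and 0 in floxed. For Csf3 the raw count, which held nearly all of its counts, gave -0.06 and the sum 0.08.

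**Figure D4:**
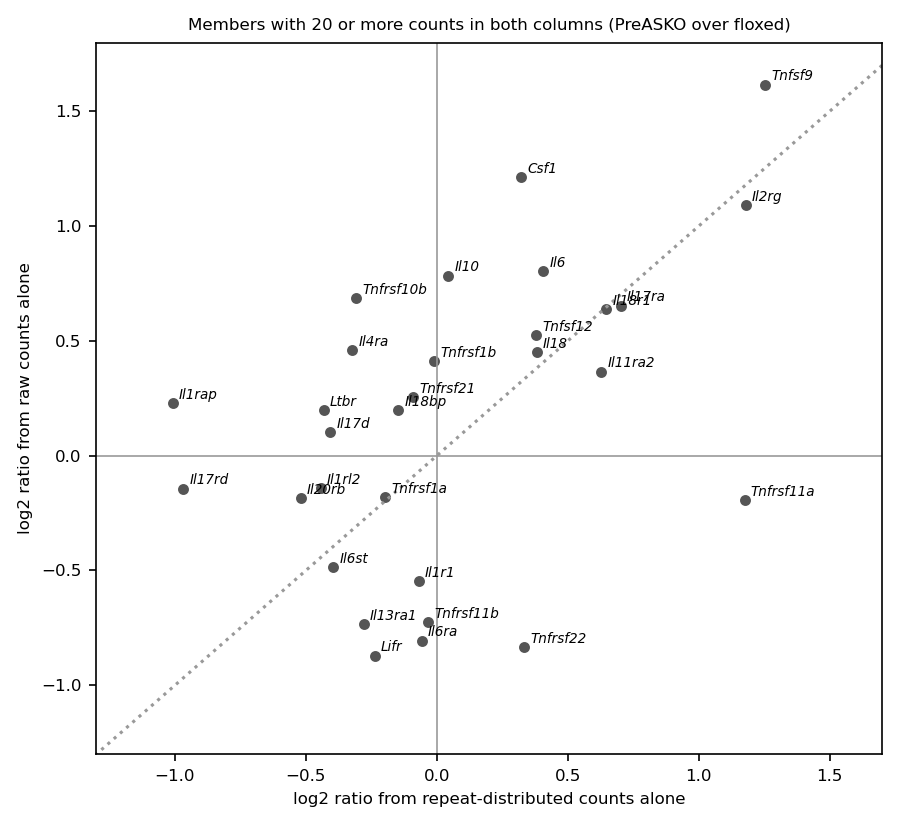
Log2 ratio of PreASKO over floxed from the raw count alone (y axis) against that from the repeat-distributed count alone (x axis) for the 30 measured members with at least 20 counts in both columns of both libraries. The dotted line marks equal ratios. Tnfsf9 and Il2rg lie high on both axes, and 10 members lie in the upper left or lower right area, where the columns differ in sign.

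Genes that carry these signals inside the cell had list medians close to 0. Of 27 genes of NF-kappaB subunits, regulators and feedback, 15 were higher and none was past 2-fold, with a median log2 ratio of 0.06. Tnip1, a partner of the NF-kappaB inhibitor A20, stood at 31.3 CPM in PreASKO and 16.7 CPM in floxed, Tnfaip2, a TNF-induced gene, at 179 and 101 CPM, and Nfkbia, the inhibitor that NF-kappaB induces to limit itself, at 350 and 220 CPM. MyD88 and IRAK signalling genes had 5 of 10 higher and a median of 0.03, with Myd88, the adaptor of IL-1 receptors, at 95.8 CPM in PreASKO and 73.0 CPM in floxed and Tab1, an activator of the kinase TAK1, at 6.38 and 10.01 CPM, while Tollip, a regulator of IL-1 signalling, stood at 82.8 and 108 CPM.

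Janus kinases and STATs had 5 of 10 higher and a median of 0.06. Stat5b, which relays common gamma chain cytokines and growth hormone, stood at 58.0 CPM in PreASKO and 79.0 CPM in floxed, and Stat2, a mediator of interferon signalling, at 138 and 109 CPM. Feedback genes had 9 of 15 higher and a median of 0.11. Socs1, an inhibitor of Janus kinases, stood at 21.4 CPM in PreASKO and 12.1 CPM in floxed, a ratio of 1.77, whereas Cish, a STAT5 target that restrains cytokine receptors, stood at 49.2 and 84.5 CPM, a ratio of 0.582. Ptpn6, a phosphatase of blood cells, stood at 16.4 CPM in PreASKO and 10.1 CPM in floxed.

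Genes that process interleukins had 6 of 9 higher and a median of 0.08. The protease gene Furin stood at 46.9 CPM in PreASKO and 60.9 CPM in floxed, Gsdmd, which forms the pore for IL-1 release, at 49.5 and 58.2 CPM, and Adam10, a sheddase, at 79.5 and 67.9 CPM. These 3 had the log2 ratios furthest from 0 where the mean reached 5 CPM. Below that mean, and further from 0, were Nlrp3, an inflammasome sensor, at 2.66 CPM in PreASKO and 1.04 CPM in floxed, Ebi3, a subunit of IL-27, at 6.46 and 3.24 CPM, and Casp1, the protease that cleaves the IL-1 beta precursor, at 6.04 and 3.46 CPM. TNF superfamily genes with other symbols had 1 of 6 higher and a median of -0.14. Ngfr, a neurotrophin receptor found on stromal cells, stood at 48.5 CPM in PreASKO and 69.9 CPM in floxed, Fas, the death receptor, at 10.3 and 9.07 CPM, and Eda, a skin appendage ligand, at 25.5 and 25.9 CPM.

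Cytokine genes beside the members had 8 of 10 higher and a median of 0.48, with Csf1r and Csf2rb2 past 2-fold. Csf2rb2, a mouse receptor chain for IL-3, stood at 10.98 CPM in PreASKO and 3.88 CPM in floxed, and Csf2rb, its closely related neighbour with which reads may be shared, at 15.5 and 8.10 CPM. Both are genes of myeloid cells, whose macrophage markers had a median of 0.86 in the same comparison. Markers of T and NK cells summed to 12.1 CPM in PreASKO and 8.13 CPM in floxed, of which Cd4 held 7.39 and 2.80 CPM. The rest went both ways, with Icos at 1.76 and 2.28 CPM and Lck at 0.904 and 0.308 CPM. Mast cell markers summed to 27.9 CPM in PreASKO and 31.5 CPM in floxed, and those of dendritic cells to 32.7 and 32.2 CPM. Among the markers of these cell types, Cd8a, Klrb1c and Fcer1a were at 0 in PreASKO, and Gzmb, Nkg7 and Xcr1 at 0 in floxed. Mural markers summed to 234 CPM in PreASKO and 290 CPM in floxed, and B and plasma cell and neutrophil markers, with 1 measured gene each, to 4.20 and 2.57 and to 3.96 and 3.42 CPM. Of the innate lymphoid markers only Rora, at 89.0 CPM in PreASKO and 94.4 CPM in floxed, was measured, and Gata3 (3 and 6 counts), Il7r and Il5 were at trace levels. Mature adipocyte markers summed to 51.1 CPM in PreASKO and 111 CPM in floxed, with all 6 measured ones lower.

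**Figure D5:**
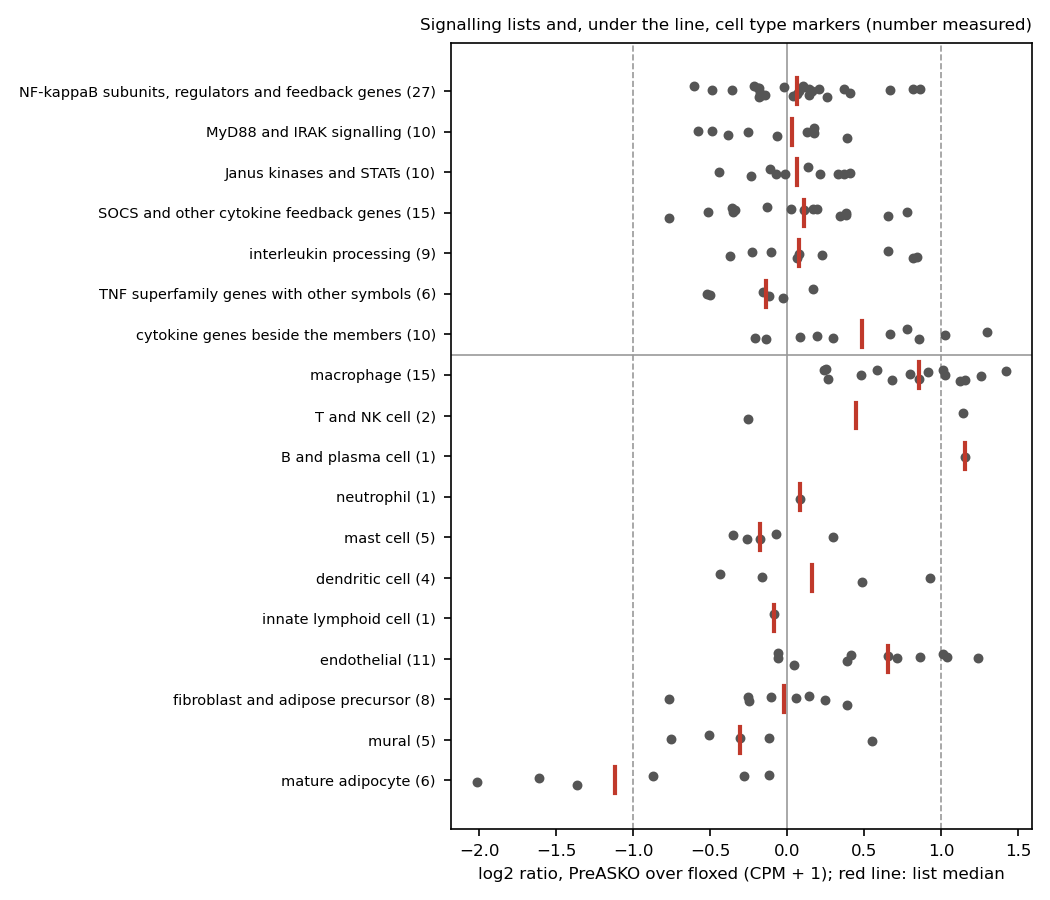
Log2 ratio of PreASKO over floxed for each measured gene (grey points) of the signalling lists and, under the grey line, of the cell type marker lists, with list medians in red and the number measured in brackets. The 15 macrophage markers all lie above 0, and the medians of the first 5 signalling lists lie between 0.03 and 0.11. Points are spread vertically only to separate them.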

How the data were processed

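Polyadenylated RNA of PDGFRa-positive cells was sequenced after PrepX library preparation, per the labels' protocols, with mm10 as genome build, as the submitters' processing notes name it. Aligner, counting program and strand setting: not given in the sources used here. Columns of the authors' table hold, per the file headers, a raw count and a repeat-distributed count, which is an estimated count that need not be whole, and a fold change, which is a ratio of PreASKO over floxed whose normalization is not stated. How reads were divided between the count columns is not stated.

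Both counts were added, since the authors' deposited fold divided by the ratio of these sums lay within 5% of its median for 97.9% of 11967 genes. Rows sharing an Entrez ID were summed for 21 IDs. Library totals were 37597048 for PreASKO and 61761645 for floxed, so low PreASKO values are the less precise ones. Ratios used a pseudocount of 1 CPM and a mean of at least 1 CPM, which 13684 genes passed. Intervals are exact 95% Poisson (levels) or Clopper-Pearson (ratios) with estimated counts rounded, and cover counting error only. Exon lengths, which join all annotated exons of a gene, and overlaps came from GENCODE M21, coordinates and promoters from RefSeq (GRCm38.p6). Scaling alternatives used edgeR 4.0.16 and DESeq2 1.42.0. The procedure was tested on simulated data that held counting error alone, which says nothing of the spread between pools.

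The members and lists were chosen with earlier results of these data known. Genes named were members past 2-fold, the 4 highest by mean CPM of each role group, those beside the 2-fold limit, 3 per signalling list (log2 ratios furthest from 0 where the mean reached 5 CPM) and label checks. A gene that this rule names is not reported here. Others were named after their values were seen, as were the promoters other than that of Il2rg. Listed genes with no row in the table were left out.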

Additional observations from a re-analysis of the deposited data

How the results depend on the processing

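With 1 library per genotype nothing could be left out, and no paired analysis was possible because each genotype had a single pool. The median log2 ratio of measured members, 0.14, lay between 0.09 and 0.22 in 11 alternatives, all above 0. Against 3 members at least 2-fold higher, a pseudocount of 0.1 CPM gave 7 (3.76% of all genes passed), the raw count alone 7 (5.13%), a 1.5-fold limit 16 (7.89%) and the authors' own deposited fold changes gave 8 (4.37%), while a pseudocount of 5 CPM gave 1 (0.424%), a 3-fold limit 0 and leaving out members that share reads by overlap or copy 1. Against 0 members at least 2-fold lower, the raw count alone gave 1 (Tnfsf14; 10% of all genes), the repeat-distributed count alone 1 (Il1rap; 1.89%) and a 1.5-fold limit 2 (8.18%). The repeat-distributed count alone also gave 3 higher members, with Tnfrsf11a in place of Il27ra. The log2 ratio of Il27ra, 1.05, turned to -0.58 there, on 2 counts in PreASKO and 29 in floxed. Under the same setting the B and plasma cell median turned from 1.15 to -0.22, because Pax5 passed the minimum level in place of Cd79b. The raw count alone changed the sign of 19 of 59 named genes and the repeat-distributed count alone that of 4 of 67, and the raw count alone turned the medians of 6 of 17 lists and 3 of 11 role groups. The cause was not tested. Scaling by DESeq2 size factors or TMM changed the sign of 1 named gene, Eda, and moved the median of all genes from -0.04 to -0.01. A minimum mean of 5 CPM turned 5 medians, those of TNF superfamily receptors (0.01 to -0.02), ligands of the IL-6 family (0.12 to -0.04), Janus kinases and STATs (0.06 to -0.01), interleukin processing (0.08 to -0.02) and dendritic cell markers (0.16 to -0.16). Without a minimum level, 2 of 14 role group medians turned. These were the common gamma chain, type 2 and IL-3 family receptors (0.46 to -0.004) and ligands of the IL-6 family (0.12 to -0.02). Leaving out members that share reads or lie on the X chromosome were alternatives chosen after seeing the data. Depth limits the 40 members below 1 CPM.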
